A study of Mus musculus with 9 samples.

Results

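The genes described here are 38 genes of DNA replication and mitosis, among the 20926 genes listed for each of 9 blood libraries of mice. They were chosen by name, with earlier results of these data known. All 38 were listed and are protein-coding genes in GENCODE on GRCm38. The mice were DBA/1 males, and each of the 3 groups had 3 libraries. The labels give an age of 7 weeks, which in the paper is the age at division into groups. Immunization, booster and irradiation came after it, so the mice were older when blood was taken. Ctrl mice had no arthritis and no irradiation, CIA mice had collagen-induced arthritis, a model of rheumatoid arthritis raised by immunization with type II collagen, and CIA+THz mice were arthritic in the same way and received 0.1 THz radiation on the swollen ankle, in daily sessions of 30 min on 14 days. No irradiated group without arthritis was analysed here, so irradiation was compared only among arthritic mice. The paper describes isoflurane anaesthesia during the sessions and none for the other groups, so radiation and anaesthesia cannot be told apart here. The libraries of a group carry separate labels, and nothing in the labels ties a number to a shared cage, day or batch.

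A dividing cell copies its DNA once in S phase and then parts the copies in mitosis. In S phase the MCM helicase, loaded at replication origins, opens the double helix, a sliding clamp holds the polymerases, and enzymes such as ribonucleotide reductase supply nucleotides. In mitosis, cyclin-dependent and Aurora kinases drive the condensation of chromosomes, kinetochores join them to the spindle, and a checkpoint holds the cell until all are attached. Most circulating leukocytes are at rest, whereas the precursors of red cells and a few activated lymphocytes and immature myeloid cells in blood can divide.

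Many genes of this kind carry short shared elements before their start. The CCAAT box (CCAAT) binds NF-Y, the cell cycle homology region or CHR (TTTGAA or TTTAAA) binds the DREAM and MuvB complexes and is typical of mitotic genes, and E2F sites (searched as TTTCCCGC, TTTCGCGC, TTTGCCGC and TTTGGCGC) are typical of S phase genes. The motifs were searched on both strands of the 250 bases before each start in the RefSeq promoter table for GRCm38.p6, where 33 of the 38 genes were found; Mcm4, Gins2, Ccna2, Aurkb and Tpx2 were not. The last 150 bases before the start are shown for 6 genes that the results below turn on or that show the elements best, 5′ to 3′ on the strand of the gene, with matches on either strand in capitals.
Mcm5, chr8:75109359-75109508, plus strand: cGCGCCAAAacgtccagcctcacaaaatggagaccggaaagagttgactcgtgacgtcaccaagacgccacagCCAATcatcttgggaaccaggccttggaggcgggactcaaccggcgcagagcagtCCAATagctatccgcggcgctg
Mcm6, chr1:128359706-128359855, minus strand: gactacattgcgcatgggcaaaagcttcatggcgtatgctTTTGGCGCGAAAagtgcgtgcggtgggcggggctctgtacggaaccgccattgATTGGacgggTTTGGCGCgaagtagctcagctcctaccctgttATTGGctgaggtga
Cdk1, chr10:69352913-69353062, minus strand: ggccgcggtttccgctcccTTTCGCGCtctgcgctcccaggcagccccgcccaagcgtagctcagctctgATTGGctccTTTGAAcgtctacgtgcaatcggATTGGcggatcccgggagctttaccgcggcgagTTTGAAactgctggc
Plk1, chr7:122159285-122159434, plus strand: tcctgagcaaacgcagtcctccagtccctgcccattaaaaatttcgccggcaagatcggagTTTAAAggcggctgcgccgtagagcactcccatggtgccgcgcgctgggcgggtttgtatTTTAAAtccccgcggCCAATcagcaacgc
Mki67, chr7:135716380-135716529, minus strand: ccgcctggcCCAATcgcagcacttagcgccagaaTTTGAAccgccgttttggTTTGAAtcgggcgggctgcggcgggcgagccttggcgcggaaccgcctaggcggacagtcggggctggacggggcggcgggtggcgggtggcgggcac
Nusap1, chr2:119618148-119618297, plus strand: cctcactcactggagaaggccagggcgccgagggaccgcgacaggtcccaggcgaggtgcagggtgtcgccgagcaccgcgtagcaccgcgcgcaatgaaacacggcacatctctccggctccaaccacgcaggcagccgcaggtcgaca
Of the stretches shown, those of Mcm5 and Mcm6 held CCAAT boxes (or ATTGG, its reverse complement) and E2F sites. Mcm6 held the latter on both strands in overlap. Plk1 and Mki67 held CCAAT boxes and CHRs, Cdk1 held all 3 elements, and Nusap1 held none of these letters in the stretch shown.

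Among the members in the table, 28 of 33 (84.8%) had a CCAAT box in the 250 bases, against 40.5% of the 9903 tested genes in the same table and 37.5% of all 27025 genes in it. A CHR was found for 13 of the 20 mitosis genes (65.0%) and 4 of the 13 S phase genes (30.8%), against 21.3% of tested genes and 28.1% of all. An E2F site was found for 5 of 13 S phase genes (38.5%) and 1 of 20 mitosis genes (5.0%), against 3.85% and 2.16%. A gene with more than 1 start counted if any of them had the match. These shares describe letters, not bound sites.

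**Figure D1:**
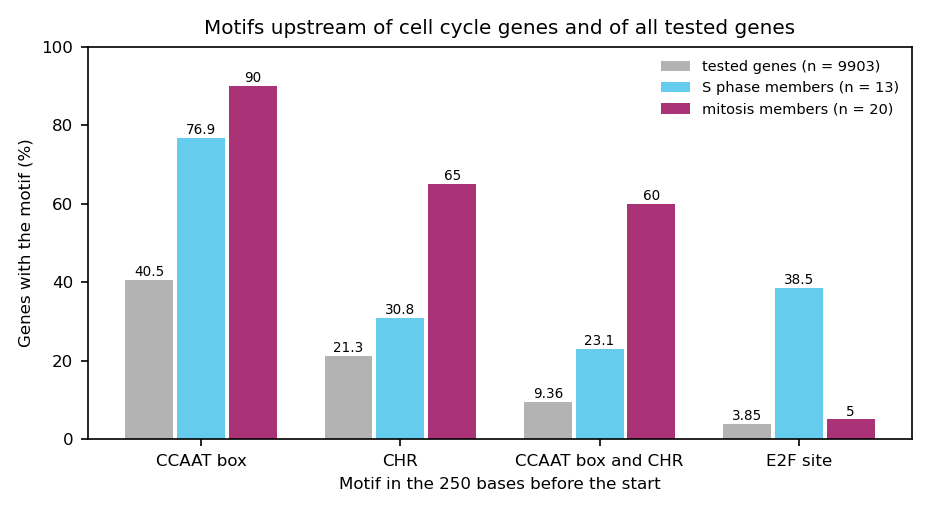
The share of genes (y axis, percent) with each motif (x axis) in the 250 bases before the start, as bars for 13 S phase genes, 20 mitosis genes and 9903 tested genes. The CHR bar is tallest for mitosis genes at 65.0%, and the E2F bar for S phase genes at 38.5%.

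The authors deposited FPKM, fragment numbers corrected for the length of the transcript and the size of the library, so that levels can be compared between genes. FPKM holds no read counts, and the depth behind a value is unknown. Each library was divided by 1 median-of-ratios factor, and all levels below are rescaled FPKM. The CIA+THz factors were larger, so the rescaling moved log2 differences by -0.28 against CIA and by -0.31 against Ctrl. With the FPKM as deposited, 12 of the members' fold changes took the other sign, none of them called. They were those of Rrm1, Aurkb and Cenpa in CIA against Ctrl, of Rrm1, Tyms, Aurka, Bub1 and Birc5 from CIA to CIA+THz, and of Mcm6, Mcm7, Rrm1 and Cenpe in CIA+THz against Ctrl. Genes above 0 numbered 11816 to 12264 in the Ctrl libraries, 11801 to 12066 in CIA and 12449 to 12807 in CIA+THz. Of the tested genes, 5.11% to 7.29% were at 0 in Ctrl, 5.98% to 7.32% in CIA and 2.80% to 4.25% in CIA+THz. Detection was thus wider in CIA+THz, without overlap. Low members listed at 0 only in other groups, such as Uhrf1, Rrm2, Gins2 and Cdk1, are limited by this. The samples are labelled as blood leukocytes, yet Alas2, the heme synthesis enzyme of red cell precursors, accounted in each library for 11.4% to 16.7% of the FPKM of all genes. Markers of neutrophils, monocytes, T cells and B cells were also present in all 9 libraries.

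The 38 genes were mostly low in blood. Only Mki67, Ccna2 and Nusap1 had a mean over the 9 libraries of at least 10, 15 genes lay between 1 and 10, and 20 lay under 1. The median of the members' means was 0.830, against 4.96 over the 12366 genes tested. Mki67, the proliferation marker Ki-67 that coats mitotic chromosomes, had a mean of 24.95, Ccna2, the cyclin A of S phase and G2, 22.9, and Nusap1, a microtubule-binding protein of the spindle, 19.2. Their genes lie at chr7:135689784-135716361, chr3:36564865-36572150 and chr2:119618298-119651244. These 3 genes alone made up between 40.3% and 61.6% of the summed level of all 38 in a library. Of the 342 single values of the 38 genes, 27 were listed at 0, in 16 genes, and 22 genes were above 0 in every library. All 38 passed the filter of a mean of 0.1. Birc5, at a mean of 0.135, passed only through its Ctrl libraries.

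The summed level of the 3 abundant genes ranged from 64.9 to 97.2 in Ctrl with a median of 94.3, from 48.4 to 84.6 in CIA with a median of 60.0, and from 38.7 to 60.2 in CIA+THz with a median of 55.2. All CIA+THz libraries were below all Ctrl libraries, and CIA overlapped both. CIA+THz and Ctrl overlapped too with the FPKM as deposited. The other 35 genes together ranged from 60.4 to 60.7 in Ctrl, from 53.3 to 56.6 in CIA and from 57.1 to 63.9 in CIA+THz. On the rescaled values their sum thus moved far less between libraries than that of the abundant genes. It was also lower in each CIA library than in every other library. That order depends on the rescaling, as Ctrl replicate 2 lay below every CIA library with the FPKM as deposited.

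**Figure D2:**
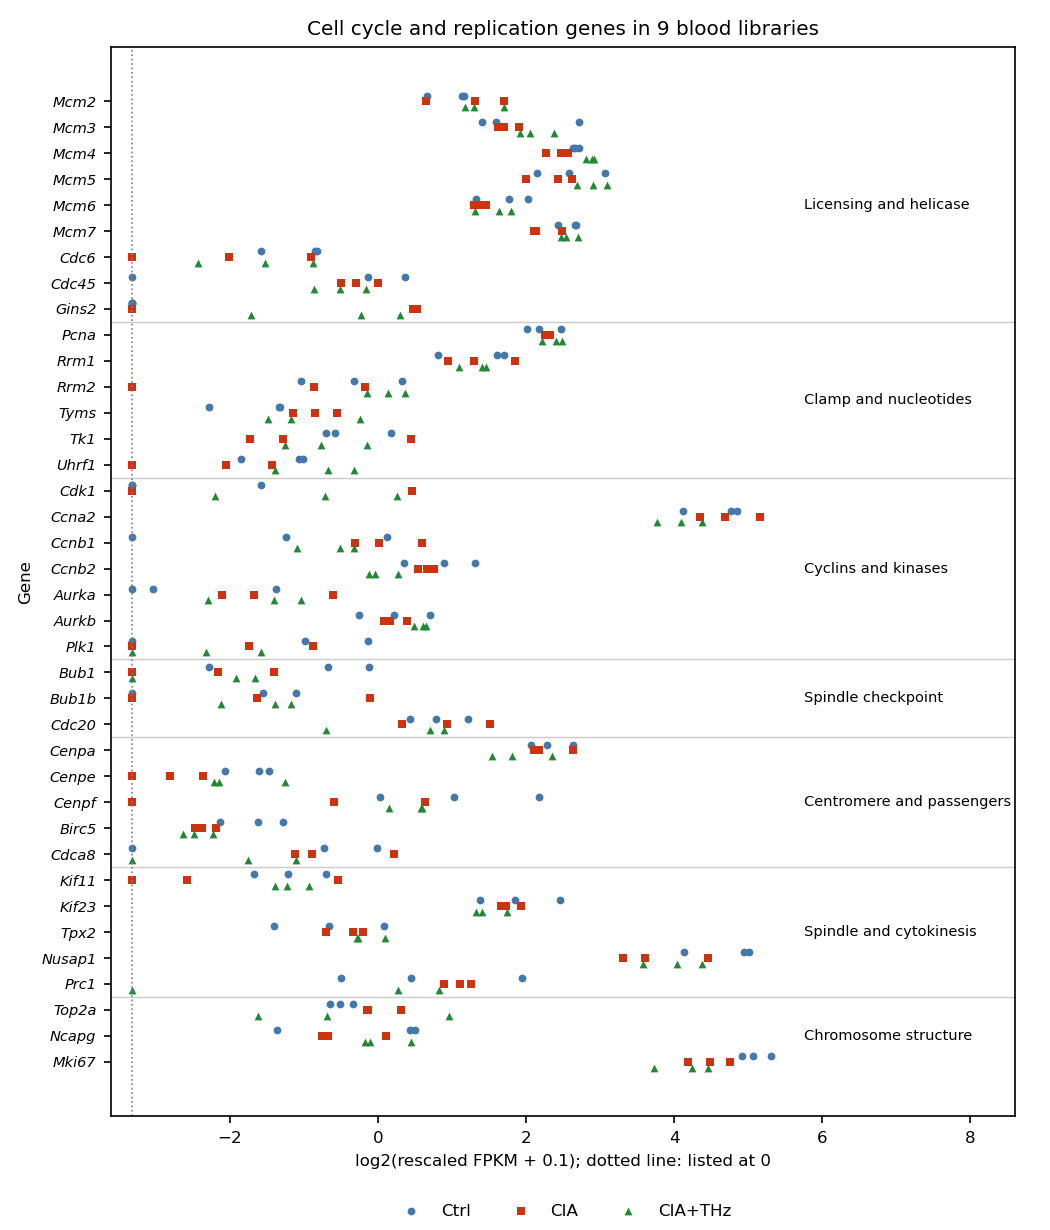
Level of each of the 38 genes (y axis, by role) in each library (points) on a log2 scale with 0.1 added (x axis), for Ctrl, CIA and CIA+THz. Mki67, Ccna2 and Nusap1 stand far to the right of all other members, and points on the dotted line are listed at 0.

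Between pairs of groups a gene was called at an unadjusted p under 0.05 by limma and an absolute log2 fold change above 0.67, the criterion of the study. Fold changes are on the log2(rescaled FPKM + 0.1) scale, which understates changes of low genes. In CIA against Ctrl, 2 of 38 members were called, Gins2 higher and Nusap1 lower, where 9.04% of all tested genes were called. In CIA+THz against CIA, 1 of 38 was called, Uhrf1 higher, where 4.54% of all were. CIA+THz against Ctrl gave 3, Gins2 higher and Mki67 and Nusap1 lower, where 7.88% of all were called. By limma's F-test across the 3 groups, Mki67, Nusap1 and Gins2 reached an unadjusted p under 0.05, as did 21.3% of all genes. The members' shares of calls were thus close to or under those of all genes. Without the fold criterion, 3 members reached an unadjusted p under 0.05 in CIA against Ctrl (17.3% of all genes), 4 from CIA to CIA+THz (13.2%) and 3 in CIA+THz against Ctrl (18.1%).

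With adjustment by limma over all genes, 0 of 38 members reached 0.05 in any of these tests. The background was low there too, at 0.154% of all genes in CIA against Ctrl, 0.0% from CIA to CIA+THz, 0.105% in CIA+THz against Ctrl and 2.53% across the groups. The smallest adjusted p of a member by limma was 0.168, 0.303, 0.106 and 0.0665 in that order.

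The 3 libraries of a pair of groups did not overlap for few members. In CIA, Tyms and Top2a lay above all Ctrl values (11.8% of all genes did) and Mcm4, Cenpe, Birc5 and Mki67 lay below (11.8%). CIA+THz lay above CIA for 7 members, Mcm3, Mcm4, Mcm5, Rrm2, Uhrf1, Aurkb and Cenpe (9.38% of all genes), and below it for 3, Ccnb1, Ccnb2 and Prc1 (10.2%). Against Ctrl, CIA+THz lay above for Mcm2, Mcm4 and Gins2 (11.9%) and below for Ccnb2, Birc5 and Mki67 (12.0%). Birc5, which passed the filter only through Ctrl, had to be lower in the others; without it 3 members lay below Ctrl in CIA and 2 in CIA+THz. Of the 7 members above CIA, 5 were S phase genes. These overlaps were read on rescaled FPKM, and not all of them hold with the FPKM as deposited. On that scale CIA+THz overlapped CIA for Ccnb1 and Prc1, and CIA overlapped Ctrl for Mcm4.

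For CIA against Ctrl the median log2 fold change of the 38 members was -0.14, for CIA+THz against CIA 0.13 and for CIA+THz against Ctrl -0.00, beside -0.01, 0.03 and 0.04 over all tested genes. The 15 S phase genes had medians of -0.23, 0.23 and 0.21 in the same order, and the 23 mitosis genes -0.02, -0.12 and -0.43. The values of the mitosis genes and of all 38 members include Birc5. Its fall against Ctrl was fixed in advance, because it passed the filter only through Ctrl. A fold change above 0 in CIA+THz against CIA was found for 12 of 15 S phase genes and 9 of 23 mitosis genes, as for 52.9% of all genes. The counts were 5 and 10 in CIA against Ctrl (49.3% of all genes) and 10 and 9 in CIA+THz against Ctrl (53.7%). With the FPKM as deposited the counts in CIA+THz against CIA were 14 of 15 and 12 of 23, and the median of the mitosis genes turned to 0.03, under the all-gene median of 0.29. Against Ctrl, the median of the 38 members in CIA+THz was then 0.27, under the all-gene median of 0.33, and 23 of 38 were above 0 in place of 19. The comparisons share groups and are not independent of each other. In whole blood, fewer cells of a type and less RNA per cell cannot be told apart, here and for every gene below.

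**Figure D3:**
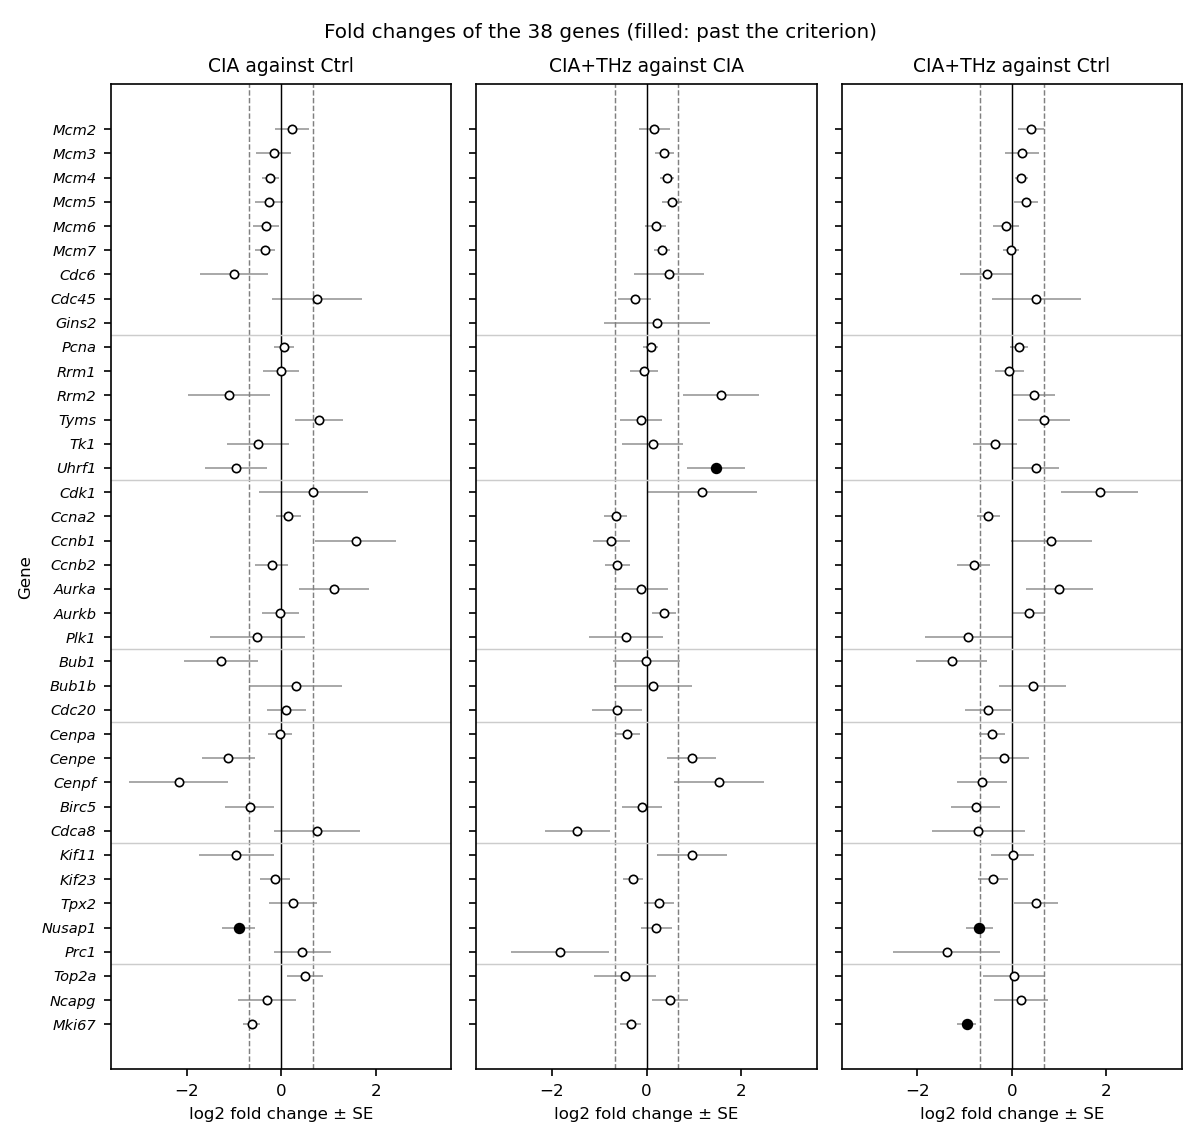
Log2 fold change with its standard error (x axis) of each gene (y axis, ordered as by role) in the 3 comparisons, with filled points for genes past the criterion and dashed lines at 0.67 in both directions. Gins2 is left out against Ctrl, where all Ctrl libraries were listed at 0; the intervals of most low genes cross 0.

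Mcm2 to Mcm7 form the ring of the replicative helicase, and each of the 6 was above 0 in all libraries. Their summed level was 25.9 to 29.4 in Ctrl, 21.0 to 24.7 in CIA and 28.9 to 31.9 in CIA+THz, so that CIA lay below both other groups with no overlap. CIA and Ctrl overlapped in this sum with the FPKM as deposited. None of the 6 was called in any comparison.

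Mcm4 was at 6.11, 6.25 and 6.47 in Ctrl, at 5.82, 5.47 and 4.74 in CIA, and at 7.30, 6.92 and 7.48 in CIA+THz. The 3 groups did not overlap in any pair, though CIA and Ctrl did so with the FPKM as deposited. Its log2 fold change was 0.43 ± 0.15 (SE) in CIA+THz against CIA, with an unadjusted p of 0.0226 and an adjusted p of 0.303 by limma, and -0.23 ± 0.18 in CIA against Ctrl. Mcm5 was at 5.87, 4.34 and 8.31 in Ctrl, at 5.29, 6.09 and 3.91 in CIA, and at 7.38, 6.36 and 8.43 in CIA+THz. All its CIA+THz values were above all CIA values, while Ctrl spanned both. The fold change was 0.54 ± 0.21 in CIA+THz against CIA (unadjusted p = 0.039, adjusted p = 0.352 by limma). Both stayed under the fold of the criterion, and both passed it with the FPKM as deposited, at 0.71 and 0.82.

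Mcm3 was at 2.56, 6.47 and 2.93 in Ctrl, at 3.66, 3.16 and 2.99 in CIA and at 4.07, 3.69 and 5.10 in CIA+THz, where all values were above those of CIA by a narrow margin. Its fold change was 0.37 ± 0.20. Mcm2, Mcm6 and Mcm7 differed by 0.17, 0.20 and 0.32 in the same comparison. All 6 were thus above 0 in CIA+THz against CIA, with a median of 0.35 against 0.03 for all genes, and with the FPKM as deposited a median of 0.62 against 0.29. All 6 remained above 0 when any library was left out, except that 5 did so without CIA replicate 3. In CIA against Ctrl 1 of 6 was above 0, with a median of -0.24, and in CIA+THz against Ctrl 4 of 6, or all 6 with the FPKM as deposited.

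Lists of other cells moved in the same libraries. T cell markers, such as Cd3e and Lck, summed to 399 to 441 in Ctrl, 304 to 352 in CIA and 397 to 527 in CIA+THz, and all 10 had a fold change above 0 in CIA+THz against CIA, of which 2 were called. Progenitor markers, such as Kit and Cd34, summed to 16.2 to 26.4, 14.4 to 14.6 and 17.1 to 22.4, and 4 of 6 were above 0, with none called and 1 at an unadjusted p under 0.05 by limma. Markers of NK cells, such as Ncr1 and Eomes, summed to 142 to 184, 50.2 to 114 and 92.9 to 147, and 7 of 7 were above 0 in CIA+THz against CIA, with 2 called. Those of B cells, such as Cd79a and Pax5, summed to 369 to 441, 427 to 525 and 487 to 632, and 6 of 7 were above 0, with none called and 2 at an unadjusted p under 0.05 by limma. Genes of neutrophil granules, such as Camp and Ltf, ran the other way. They summed to 296 to 510 in Ctrl, 547 to 1480 in CIA and 327 to 446 in CIA+THz, and from CIA to CIA+THz 8 of 9 were below 0, of which 3 were called. No marker of the T, B, NK or progenitor lists was at 0 in any library, while up to 4 of the 9 granule genes were in a Ctrl library. Over all genes in CIA+THz against CIA, 52.9% were above 0, 4.54% were called and 13.2% had an unadjusted p under 0.05 by limma. The part of these lists in the MCM values was not tested.

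The loading factor Cdc6 and the helicase activators Cdc45 and Gins2 were far lower than the ring. Gins2, a subunit of the GINS complex, was listed at 0 in all 3 Ctrl libraries and in 1 CIA library. The other CIA values were 1.35 and 1.30, and the CIA+THz values were 1.13, 0.206 and 0.757. It was called higher against Ctrl in CIA (unadjusted p = 0.0471, adjusted p = 0.281 by limma) and in CIA+THz (adjusted p = 0.125), and no fold is given against a group at 0. The call in CIA was lost without CIA replicate 2 or 3 or any single Ctrl library, whereas the call in CIA+THz held without any of the 6 libraries. Cdc6 ranged from 0 to 0.469 and Cdc45 from 0 to 1.19 over the 9 libraries, with overlap of all groups.

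Of the genes of nucleotide supply and replication upkeep, Pcna is the sliding clamp. It was at 5.46, 4.41 and 3.94 in Ctrl, at 4.68, 4.72 and 4.91 in CIA, and at 5.22, 4.57 and 5.49 in CIA+THz, and the groups overlapped. Its fold changes were 0.06 ± 0.21 in CIA against Ctrl, 0.09 ± 0.16 from CIA to CIA+THz and 0.15 ± 0.20 in CIA+THz against Ctrl. Rrm1, the large subunit of ribonucleotide reductase, lay between 1.65 and 3.53, with fold changes of -0.00, -0.05 and -0.05, or 0.02, 0.22 and 0.24 with the FPKM as deposited.

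Uhrf1, which carries DNA methylation over to the new strand, was the member called in CIA+THz against CIA. It was at 0.378, 0.395 and 0.180 in Ctrl, at 0, 0.142 and 0.272 in CIA, and at 0.283, 0.527 and 0.699 in CIA+THz. Every CIA+THz value was above every CIA value, though the lowest and the highest of the groups were nearly equal. The log2 fold change was 1.47 ± 0.61 (unadjusted p = 0.047, adjusted p = 0.371 by limma). It was 0.94 without CIA replicate 1, the library at 0, and the call was lost without CIA replicate 1 or 2 or without CIA+THz replicate 2 or 3.

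Rrm2, the small subunit of ribonucleotide reductase that is made in S phase, was at 0.387, 0.702 and 1.15 in Ctrl, at 0.791, 0 and 0.450 in CIA and at 1.19, 0.997 and 0.807 in CIA+THz. The CIA+THz values lay just above those of CIA, at a fold change of 1.57 ± 0.80 that missed the criterion. Tyms, thymidylate synthase, and Tk1, thymidine kinase, were between 0.105 and 1.26 over all libraries and were not called in any comparison.

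**Figure D4:**
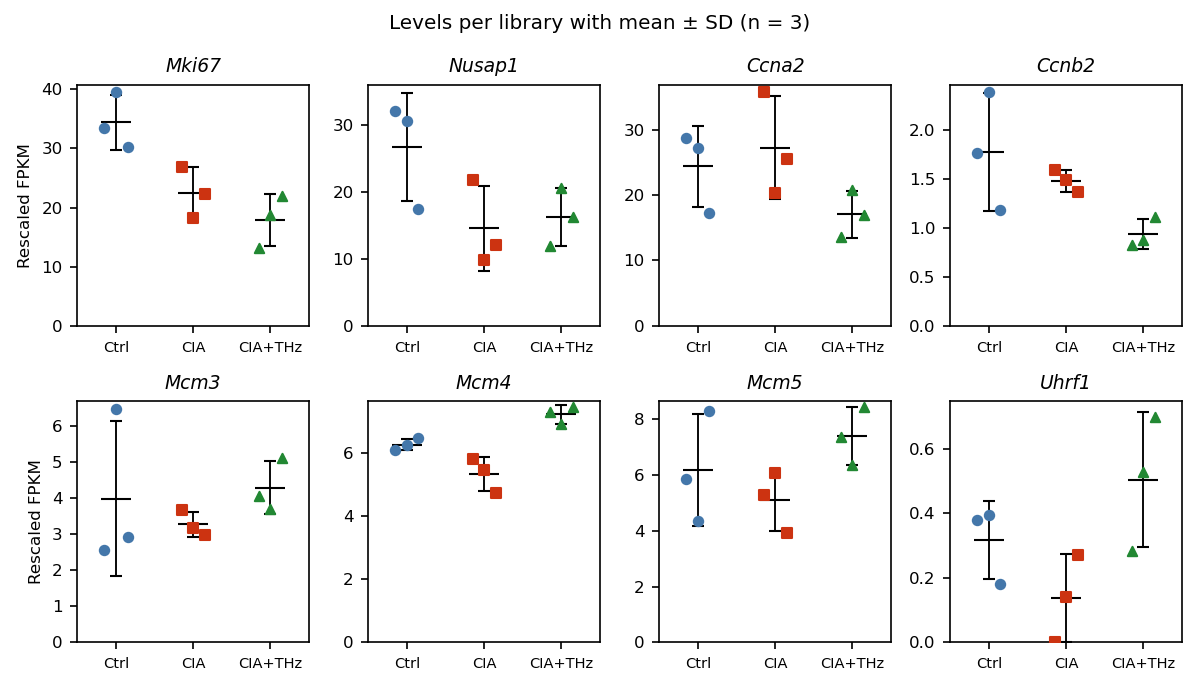
Rescaled FPKM (y axis, from 0) of 8 members in each library (points), with the mean and SD of the 3 libraries of each group (bars), for Ctrl, CIA and CIA+THz. Mki67 is lower in all arthritic libraries than in Ctrl, and Mcm4 is higher in CIA+THz than in both other groups.

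Among the mitotic cyclins and kinases, Ccna2 was by far the most abundant. It was at 28.7, 27.2 and 17.3 in Ctrl, at 35.8, 20.4 and 25.6 in CIA and at 13.6, 20.7 and 17.0 in CIA+THz. The CIA+THz values were the lower ones but overlapped both other groups. The log2 fold change was -0.65 ± 0.24 in CIA+THz against CIA (unadjusted p = 0.0309, adjusted p = 0.328 by limma), just under the fold of the criterion, and -0.50 ± 0.23 against Ctrl. With the FPKM as deposited it was -0.38 against CIA, with an unadjusted p of 0.122 by limma.

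Ccnb2, a B-type cyclin of mitosis, was at 1.76, 2.38 and 1.18 in Ctrl, at 1.59, 1.49 and 1.36 in CIA and at 0.822, 0.879 and 1.11 in CIA+THz. All CIA+THz values were below all others. Its fold changes of -0.61 ± 0.27 against CIA and -0.81 ± 0.35 against Ctrl had unadjusted p above 0.05 by limma (adjusted p = 0.397 and 0.283). Ccnb1, the other B-type cyclin, was at 0.324, 0.993 and 0 in Ctrl, at 1.41, 0.912 and 0.706 in CIA and at 0.701, 0.368 and 0.602 in CIA+THz, so that CIA+THz was below CIA and within Ctrl. Its CIA+THz and CIA values overlapped with the FPKM as deposited.

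Cdk1, the kinase these cyclins activate, was listed at 0 in 2 Ctrl and 2 CIA libraries and was otherwise at 0.234 in Ctrl and 1.28 in CIA, whereas CIA+THz held 0.117, 0.511 and 1.10. Its standard errors, from 0.82 to 1.17 on the log2 scale, were too large for a call. Aurkb, the kinase of the chromosomal passenger complex, was at 0.743, 1.54 and 1.06 in Ctrl, at 0.958, 1.02 and 1.21 in CIA and at 1.31, 1.47 and 1.42 in CIA+THz. Its CIA+THz values were above those of CIA at a fold change of 0.37 ± 0.26, within the Ctrl range. Aurka, the kinase of the spindle poles, and Plk1, a kinase of mitotic entry, stayed at or under 0.812 in every library and were not called.

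Of the spindle checkpoint, Bub1 and Bub1b, which hold back anaphase, were between 0 and 0.830 and overlapped in all groups. Cdc20, which activates the anaphase-promoting complex, was at 1.25, 1.62 and 2.23 in Ctrl, at 1.82, 1.15 and 2.75 in CIA and at 0.519, 1.77 and 1.53 in CIA+THz. The groups overlapped, and no checkpoint gene was called or had an unadjusted p under 0.05 by limma in any comparison.

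The 5 centromere and passenger genes were not called and had no unadjusted p under 0.05 by limma in any comparison. Leaving out Birc5, which passed the filter only through Ctrl, all 4 others had a fold change below 0 in CIA+THz against Ctrl, at a median of -0.53, or 3 of 4 with the FPKM as deposited, where the median was -0.24 against 0.33 for all genes. Cenpa, the histone H3 variant of centromeres, was the most abundant, at 6.09, 4.77 and 4.11 in Ctrl, at 6.10, 4.22 and 4.44 in CIA and at 2.81, 4.99 and 3.42 in CIA+THz. Its groups overlapped. Cenpf, a kinetochore protein, was at 1.95, 4.42 and 0.923 in Ctrl, at 0, 1.46 and 0.564 in CIA and at 1.40, 1.01 and 1.41 in CIA+THz. The spread within CIA left a fold change of -2.17 ± 1.04 against Ctrl uncalled (adjusted p = 0.337 by limma).

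Cenpe, a kinetochore motor, was at 0.263, 0.229 and 0.139 in Ctrl, at 0.0429, 0 and 0.0956 in CIA and at 0.115, 0.126 and 0.322 in CIA+THz. CIA lay below both other groups without overlap, with fold changes of -1.12 ± 0.56 against Ctrl and 0.96 ± 0.52 in CIA+THz against CIA, neither past the criterion. Birc5, or survivin, was at 0.225, 0.129 and 0.313 in Ctrl, and between 0.0623 and 0.121 in all arthritic mice, below every Ctrl value. Cdca8, or borealin, ranged from 0 to 1.06 with overlap of the groups.

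Of the spindle genes, Nusap1 carried the only calls. It was at 32.1, 30.6 and 17.5 in Ctrl, at 21.8, 9.85 and 12.1 in CIA and at 11.9, 20.7 and 16.3 in CIA+THz. Ctrl replicate 3 fell among the arthritic libraries, so that the groups overlapped. The log2 fold change was -0.90 ± 0.35 in CIA against Ctrl (unadjusted p = 0.0353, adjusted p = 0.250 by limma) and -0.69 ± 0.28 in CIA+THz against Ctrl (adjusted p = 0.260). The first call was lost without CIA replicate 2 or 3 or Ctrl replicate 1 or 2. The second was lost without CIA+THz replicate 1 or 3 or Ctrl replicate 1 or 2, and with the FPKM as deposited, at -0.39.

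The motors Kif11, which parts the spindle poles, and Kif23, of the central spindle, had no call. Kif23 was at 5.40, 2.51 and 3.51 in Ctrl, between 3.07 and 3.71 in CIA, and at 3.26, 2.40 and 2.55 in CIA+THz, with overlap, while Kif11 stayed between 0 and 0.587. Prc1, which bundles the microtubules of the midzone, was between 1.76 and 2.29 in CIA and at 1.67, 1.11 and 0 in CIA+THz, below CIA, whereas Ctrl ran from 0.611 to 3.77. CIA+THz overlapped CIA for Prc1 with the FPKM as deposited. Tpx2, a spindle assembly factor, was between 0.279 and 0.972 in all groups.

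Mki67 was the member with the smallest p. It was at 33.5, 39.5 and 30.2 in Ctrl, at 26.9, 18.2 and 22.3 in CIA, and at 13.2, 18.8 and 21.9 in CIA+THz. Every arthritic library was below every Ctrl library, while CIA and CIA+THz overlapped. Means were 34.4 ± 4.72, 22.5 ± 4.38 and 17.97 ± 4.40 (SD, n = 3 each). The gene fell by 0.95 on the log2 scale in CIA+THz against Ctrl (SE 0.20, unadjusted p = 0.00183, adjusted p = 0.106 by limma). In CIA against Ctrl the fold change was -0.62 ± 0.18 (unadjusted p = 0.0102, adjusted p = 0.168 by limma), just under the fold of the criterion, and in CIA+THz against CIA it was -0.33 ± 0.22 (adjusted p = 0.556). The call in CIA+THz against Ctrl held without any single library, at -1.11 to -0.75. With the FPKM as deposited the fold change was -0.65 (unadjusted p = 0.00455 by limma), short of the fold of the criterion.

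Top2a, the topoisomerase that untangles sister chromatids, was at 0.602, 0.542 and 0.694 in Ctrl, at 0.809, 0.810 and 1.14 in CIA and at 0.522, 0.226 and 1.84 in CIA+THz. CIA was above Ctrl without overlap at a fold change of 0.51 ± 0.38, which missed the criterion. Ncapg, a condensin subunit, was between 0.288 and 1.32 with overlap.

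The summed red cell markers without Alas2 were lower on average in the arthritic groups, as Mki67 and Nusap1 were, whereas the mean of Ccna2 was 24.4 in Ctrl and 27.2 in CIA. With Alas2, the 9 markers summed to 69064 to 103547 in Ctrl and 87093 to 97791 in CIA. In CIA+THz they summed to 47424 to 65406. This sum is almost wholly Alas2. By it CIA lay within Ctrl, and only CIA+THz was lower. The 8 erythroid genes listed beside Alas2, such as Slc4a1 and Klf1, summed to between 309 and 592 in Ctrl, 230.5 and 408 in CIA and 249.9 and 345 in CIA+THz, and none of the 9 with Alas2 was at 0 in any library. Ctrl replicate 3 had the lowest sum of Ctrl, as it had the lowest Mki67, Nusap1 and Ccna2. This was not particular to red cell genes. The same library was lowest of Ctrl in the sums of mature neutrophil, granule, monocyte, platelet, plasma cell and progenitor genes. In the sums of T, B and NK cell markers it was the highest of Ctrl. All 9 had a fold change below 0 in CIA+THz against Ctrl and 4 were called lower (Slc4a1, Klf1, Epor and Rhag), where 7.88% of all genes were called and 53.7% were above 0; with the FPKM as deposited 1 of the 9 turned above 0. In CIA against Ctrl, 7 of the 9 had a fold change below 0 and 2 above it. Klf1 and Ermap were called lower there, where 9.04% of all genes were called. Ahsp of this list was not analysed here.

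Other lists moved in the same libraries. Plasma cell markers summed to 116 to 140 in Ctrl, 57.3 to 64.3 in CIA and 52.2 to 58.2 in CIA+THz, so that both arthritic groups lay below Ctrl without overlap, as Mki67 did. Of these 8 genes 4 were called lower in CIA and 3 in CIA+THz against Ctrl, and 1 at most was at 0 in a library. Of all genes, 9.04% and 7.88% were called in these comparisons, here and for the lists that follow. Of the 9 granule genes described beside the helicase, 8 had a fold change above 0 against Ctrl in each arthritic group, with 3 called higher in each and 1 called lower in CIA+THz. Mature neutrophil markers summed to 12382 to 20912 in Ctrl, 14225 to 18405 in CIA and 10529 to 11982 in CIA+THz. In CIA+THz against Ctrl, 7 of these 8 markers had a fold change below 0 and 3 were called lower. The part of these lists and of the red cell markers in the values of Mki67, Nusap1 and Ccna2 was not tested. The measure that follows is a description and does not test it.

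A measure chosen after these values were seen set the log2 level of each abundant member against the mean log2 level of the 9 erythroid genes of the same library. By it Mki67 differed by -0.09 in CIA against Ctrl (exact permutation p = 0.5, two-sided) and by -0.29 in CIA+THz against Ctrl (exact p = 0.2), with overlap of the groups in both. Nusap1 differed by -0.37 (exact p = 0.4) and -0.03 (exact p = 0.9) in the same comparisons. Ccna2 was higher by 0.68 in CIA than in Ctrl and differed by -0.51 in CIA+THz against CIA, without overlap in either (exact p = 0.1 each). With 3 libraries a group, 0.1 is the smallest p that this test can give, so it cannot pass 0.05. A high p here therefore decides nothing about the part of red cells.

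**Figure D5:**
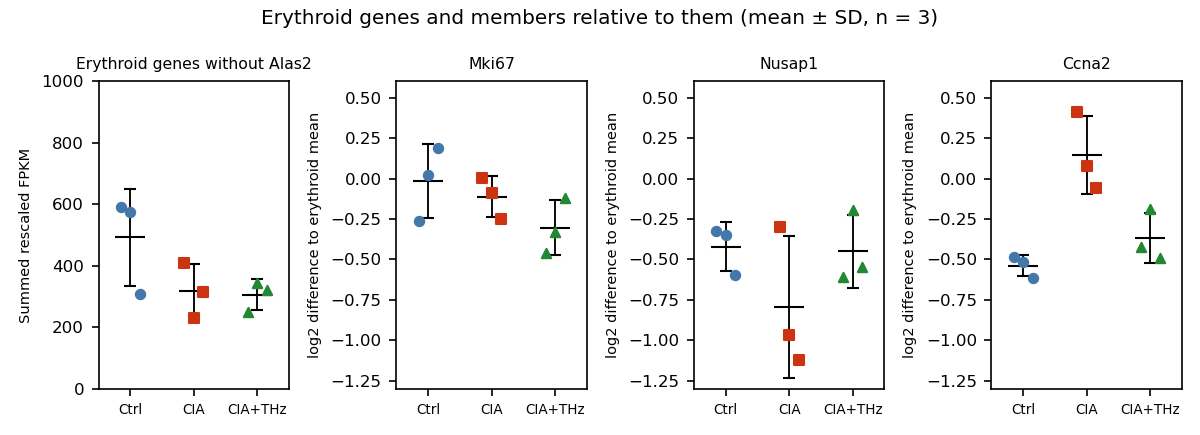
Left, summed rescaled FPKM of 8 erythroid genes without Alas2; right, log2 level of Mki67, Nusap1 and Ccna2 minus the mean log2 level of 9 erythroid genes, for each library (points) with the mean and SD of each group (bars). Ctrl replicate 3 lies far below the other Ctrl libraries on the left, at 309, while on this relative scale the 3 Ctrl values of Ccna2 lie close together and below those of CIA.

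The number of members called also turned on Ctrl replicate 3. Without it 5 members were called in CIA against Ctrl and 8 in CIA+THz against Ctrl, where the share of all genes called was 10.2% and 12.0%. In the first, Bub1, Cenpe and Mki67 joined lower and Prc1 higher, and Gins2 was lost. In the second, Ccna2, Ccnb2, Bub1 and Cenpf joined lower and Cdk1 higher.

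Wider lists of the same pathways showed how far the 38 genes stand for them. Of 28 further replication genes, 26 were tested. In CIA against Ctrl 1 was called, Hells, a chromatin remodeler, at -1.82 ± 0.50. From CIA to CIA+THz 2 were, Cdt1, the origin licensing factor, at 0.68 ± 0.22 and Prim1, a primase subunit, at -0.96 ± 0.33. Pole, a replicative polymerase, was called in CIA+THz against Ctrl at 3.18 ± 0.90 from Ctrl values of 0, 0.843 and 0.976. The shares called were 3.85%, 7.69% and 3.85% of the list, beside 9.04%, 4.54% and 7.88% of all genes. The list's medians were -0.05, 0.24 and 0.19 in these comparisons, beside -0.01, 0.03 and 0.04 for all genes.

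Cdt1 was at 3.15, 2.60 and 4.46 in Ctrl, at 1.75, 2.07 and 2.31 in CIA and at 3.34, 3.68 and 2.96 in CIA+THz. CIA was below both other groups with no overlap, the order also seen for the summed Mcm2 to Mcm7. For both, CIA and Ctrl overlapped with the FPKM as deposited.

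Of 45 further mitosis genes, 39 were tested, and 2 were called in CIA against Ctrl, 2 from CIA to CIA+THz and 4 in CIA+THz against Ctrl. These are 5.13%, 5.13% and 10.3% of the list, beside 9.04%, 4.54% and 7.88% of all genes. Its medians were -0.15, 0.01 and -0.26, where those of the 23 mitosis members, Birc5 among them, were -0.02, -0.12 and -0.43. Smc4, a core subunit of condensin, was the clearest. It was at 18.5, 14.8 and 18.0 in Ctrl, at 9.72, 9.38 and 8.98 in CIA and at 13.4, 15.6 and 13.8 in CIA+THz. CIA was below both groups without overlap, at -0.86 ± 0.15 against Ctrl (adjusted p = 0.0669 by limma), and across the 3 groups its adjusted p was 0.0257 by limma. Cenpn was listed at 0 in all CIA libraries and called lower there. Mad2l1, of the spindle checkpoint, at 1.11 ± 0.33, and Ect2, a cytokinesis factor, at -1.06 ± 0.36, were called in CIA+THz against CIA.

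Ube2c, the ubiquitin-conjugating enzyme of the anaphase-promoting complex, was called lower in CIA+THz against Ctrl, at -0.86 ± 0.27, and Pttg1, securin, at -0.78 ± 0.24, while Tacc3 and Cdca2, both under 1 in every library, were called higher. Ube2c was at 251, 258 and 128 in Ctrl, at 156, 75.8 and 130 in CIA and at 99.5, 130 and 108 in CIA+THz. The value of Ctrl replicate 3 lay within the arthritic range, as for Nusap1.

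Of 8 G1 genes, Ccnd2, a D-type cyclin, and Ccne2, an E-type cyclin, were called lower in CIA against Ctrl, where 9.04% of all genes were called. None was called in CIA+THz against CIA or against Ctrl, where 4.54% and 7.88% of all genes were. In each of these, 2 genes had an unadjusted p under 0.05 by limma, as had 13.2% and 18.1% of all genes. Ccnd2 was at 55.1, 42.5 and 54.9 in Ctrl, at 32.3, 28.9 and 32.5 in CIA and at 44.7, 38.3 and 43.8 in CIA+THz. CIA lay below both groups without overlap, at -0.69 ± 0.14 against Ctrl, and the adjusted p across the groups was 0.0461 by limma. Of 7 activators of cell cycle genes, Mybl2 alone was called, at 1.08 ± 0.45 in CIA+THz against Ctrl (7.88% of all genes called), at levels up to 1.11.

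Of 20 tested repressors and brakes of the cycle, 2 were called in each comparison with Ctrl. Of all genes, 9.04% were called in CIA against Ctrl and 7.88% in CIA+THz against Ctrl. None of the 20 was called in CIA+THz against CIA, where 4.54% of all genes were. In that comparison 1 of the 20 had an unadjusted p under 0.05 by limma, beside 13.2% of all genes. Tob1, an antiproliferative protein, was at 25.3, 23.3 and 25.3 in Ctrl, at 13.3, 15.6 and 13.1 in CIA and at 12.9, 15.4 and 14.5 in CIA+THz. Both arthritic groups were below Ctrl and overlapped each other, at -0.82 ± 0.13 in CIA and -0.79 ± 0.12 in CIA+THz (adjusted p = 0.0625 and 0.0655 by limma), and the adjusted p across the groups was 0.0170. Lin54, the DNA-binding subunit of MuvB, was also called lower in CIA, at -0.87 ± 0.31, and Cdkn2b, an inhibitor of cyclin D kinases, in CIA+THz against Ctrl, at -1.18 ± 0.42.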

How the data were processed

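Blood RNA of 9 DBA/1 mice was sequenced as paired ends on an Illumina HiSeq instrument, and the authors deposited 1 FPKM column per library. The submitters' processing notes name bcl2fastq 2.0, HISAT2, StringTie, DESeq2 and mm10 without their roles; annotation, strand setting and depth are not given in the sources used here. Groups were taken from the sample labels. The members, lists and tests were chosen with earlier results of these data known.

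The columns were brought to a common scale with median-of-ratios factors, computed on the 10312 genes with no value of 0. The 12366 genes with a mean of at least 0.1 were tested on log2(rescaled FPKM + 0.1) with limma 3.58.1 (lmFit, eBayes with trend) in R 4.3.3, each pair on its 6 libraries and an F-test on all 9. Pairs were called where the unadjusted p was under 0.05 and the fold change beyond 0.67 in either direction on the log2 scale, and adjusted p are Benjamini-Hochberg over all tested genes. p-values measure the spread between these libraries, part of which may be technical. Coordinates are those of GENCODE matched by symbol. The scripts were tested on simulated data. Named genes were all 38 members and, of each further cell cycle list, up to 5 called genes per comparison with the smallest p. Promoters come from RefSeq (GRCm38.p6). Alternatives covered scaling, pseudocount, filter, trend, shared fit, replicate block, adjustment, analysis of variance and each library left out. Some genes of the erythroid and B cell marker lists are not reported here and were left out of their sums and counts.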

Additional observations from a re-analysis of the deposited data

How the results depend on the processing

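Of 1650 values of single members under alternatives, 1469 kept direction and call, 49 gained and 34 lost the call, and 98 changed sign while uncalled; no called value changed sign. In CIA against Ctrl (2 members called), 1 was called with a filter at a mean of 1, with no filter, without the trend or with a pseudocount of 0.01. The shares of all genes were 9.84%, 7.15%, 9.28% and 8.5% in that order. When a library was left out 1 to 5 members were called, beside 7.81% to 10.2% of all genes. In CIA+THz against CIA (1 called), 3 were called with the FPKM as deposited (9.67% of all genes) and 6 with columns scaled to an equal sum (10.9%). Without the trend 2 were called (4.8%) and without the fold criterion 4 (13.2%). None was called with a filter at a mean of 1 (4.09%), no filter (3.83%), or a pseudocount of 0.01 (4.25%) or 1 (2.29%). When a library was left out 1 to 4 were called, beside 3.91% to 6.02% of all genes. In CIA+THz against Ctrl (3 called), 2 to 8 were called when a library was left out, beside 5.85% to 12% of all genes. Across the groups (3 called), 6 were called with equal sums (26.2% of all genes) or without the trend (18%). When a library was left out 1 to 5 were called, beside 16.7% to 22.6% of all genes. By the adjusted p of limma 0 members were called in all 4, against 3, 4, 3 and 3 at an unadjusted p under 0.05. Same-numbered libraries did not deviate together (correlations -0.052 to 0.031). With the replicate block 3, 1, 4 and 2 members were called, beside 8.68%, 4.09%, 7.82% and 19.4% of all genes. Over all genes, CIA+THz against CIA gave 363 higher and 198 lower calls, but 1133 and 66 with the FPKM as deposited, 1359 and 52 with equal sums, and 283 calls in all with a pseudocount of 1. CIA+THz against Ctrl gave 574 higher and 401 lower, but 1600 and 120 as deposited and 1548 and 116 with equal sums. Counting error of low genes cannot be read from FPKM, and 20 of 38 members had a mean under 1.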
